A study of Mus musculus with 583 samples.

Results

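Genes for the building blocks of basement membrane and for the lineage that lays it down in the early embryo were followed across single mouse embryonic stem cells. They were taken by symbol: Col4a1, Col4a2, Lama1, Lamb1, Lamc1 and Sparc for the matrix, and Dab2, Gata6, Sox17 and Pdgfra for the endoderm lineage, 10 of the 38924 mouse genes in the count table. The 583 cells were of the J1 line, all grown in 2i/LIF, a medium of LIF with inhibitors of MEK and GSK3 that holds such cells in the naive state. Their RNA was sequenced cell by cell in 6 ways, each in libraries A and B. Smart-seq / C1 (run on the Fluidigm C1 chip) and Smart-seq2 read whole transcripts, and their counts are reads. CEL-seq2 (also on the C1), MARS-seq, SCRB-seq (FACS-sorted cells) and Drop-seq (droplets) tag the 3' end of transcripts and give counts of unique molecular identifiers (UMIs). The questions were how strongly each gene was counted by each method, and whether the endoderm genes were counted together in rare cells.

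A basement membrane is a thin sheet of extracellular matrix built on a laminin network and a type IV collagen network. In the mouse blastocyst the primitive endoderm arises beside the naive epiblast, switches on Gata6 and then Sox17, carries Pdgfra and Dab2, and its descendants secrete large amounts of laminin-111, collagen IV and Sparc. Embryonic stem cells correspond to the epiblast, and cultures of them can hold occasional cells with primitive endoderm transcripts.

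Library totals ran from 583302 counts in Drop-seq B to 34984056 in Smart-seq2 A, with a median per cell between 16188 and 439870. All tag totals, in UMIs, lay below all full-length totals, in reads. The units differ, so totals alone do not rank how much a count of 0 means in the tag and full-length libraries. The naive markers Nanog and Zfp42 were counted in 578 and 580 of the 583 cells, and summed naive marker levels lay between 1836 and 3571 CPM (counts relative to the library total, scaled by TMM) in every library. Barcodes recur between libraries A and B of CEL-seq2 (26 shared), MARS-seq (19) and SCRB-seq (21), while Drop-seq A and B shared 0. In Drop-seq, 29 of 42 barcodes in A and 12 of 34 in B lay within 1 base of another barcode of the same library, so some of those cells may be counted more than once. No label says that libraries A and B came from separate cultures, so p-values below measure the spread between libraries, which may be technical.

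RefSeq (GRCm38.p6) gives windows around the start site for 6 of the 10 genes, and both windows printed here bear on results below. Col4a1 and Col4a2 encode the chains of the common collagen IV trimer and lie head to head on chromosome 8. Col4a1 spans 11198423 to 11312826 on the minus strand and Col4a2 spans 11312805 to 11449287 on the plus strand, so that the first 22 bases of each gene model are the same stretch of DNA (GENCODE M21, GRCm38, which annotates all 10 genes as protein coding). The Col4a1 window, chr8:11312777-11313076, minus strand, is shown because the counts of the pair are compared below. Capitals mark the shared 22 bases.
Col4a1: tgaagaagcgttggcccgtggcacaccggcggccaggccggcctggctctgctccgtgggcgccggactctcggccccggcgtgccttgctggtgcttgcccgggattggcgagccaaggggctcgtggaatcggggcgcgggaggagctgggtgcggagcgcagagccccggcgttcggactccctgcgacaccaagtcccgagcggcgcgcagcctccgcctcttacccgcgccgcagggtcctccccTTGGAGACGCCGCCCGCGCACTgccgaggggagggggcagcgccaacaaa
Dab2, which codes for an endocytic adaptor of the endoderm, was the most often counted of the 4 lineage genes. Its upstream window, chr15:6299539-6299838, plus strand, was searched on both strands for AGATAA and TGATAA, the letters that GATA factors bind. Capitals mark both matches, a TGATAA 179 bases before the start site and an AGATAA on the opposite strand 14 bases after it.
Dab2: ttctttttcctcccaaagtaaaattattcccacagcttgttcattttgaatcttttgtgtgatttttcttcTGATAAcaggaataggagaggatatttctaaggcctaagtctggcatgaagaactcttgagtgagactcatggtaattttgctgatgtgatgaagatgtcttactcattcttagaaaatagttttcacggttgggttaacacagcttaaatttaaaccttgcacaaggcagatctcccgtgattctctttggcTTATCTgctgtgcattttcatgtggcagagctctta
Of 32851 windows of 300 bases, 18.6% held at least 1 such match and 3.26% held 2 or more, so a match is common, and it is a description of letters only. The other 6 windows of the genes found held no match to AGATAA or TGATAA, and none of the 7 held ACAATG or ACAAAG, letters bound by SOX factors. GC content was 74.0% in the Col4a1 window and 37.7% in the upstream Dab2 window, against a median of 52.7% over all windows. Lama1, Lamc1, Gata6 and Sox17 were not analysed here for sequence.

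The matrix genes covered a wide range of levels, and Sparc and Lamc1 stood at the top in every library. Sparc (chromosome 11, 55394500 to 55423183) codes for a collagen-binding glycoprotein of basement membranes. Its level in CPM was 541 and 197 by Smart-seq / C1 A and B, 240 and 232 by Smart-seq2, 458 and 438 by CEL-seq2, 152 and 228 by MARS-seq, 125 and 186 by SCRB-seq, and 132 and 139 by Drop-seq. The highest values were in Smart-seq / C1 A and both CEL-seq2 libraries, and the full-length and tag libraries overlapped. Lamc1 (chromosome 1, 153218922 to 153332786), the gamma chain of laminin-111, read 239 and 98.9 by Smart-seq / C1, 109 and 94.3 by Smart-seq2, 175 and 223 by CEL-seq2, 86.0 and 131 by MARS-seq, 60.1 and 73.5 by SCRB-seq, and 32.0 and 27.5 by Drop-seq. Drop-seq held both of the lowest values for Lamc1, and Smart-seq / C1 A and both CEL-seq2 libraries again held the 3 highest.

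**Figure D1:**
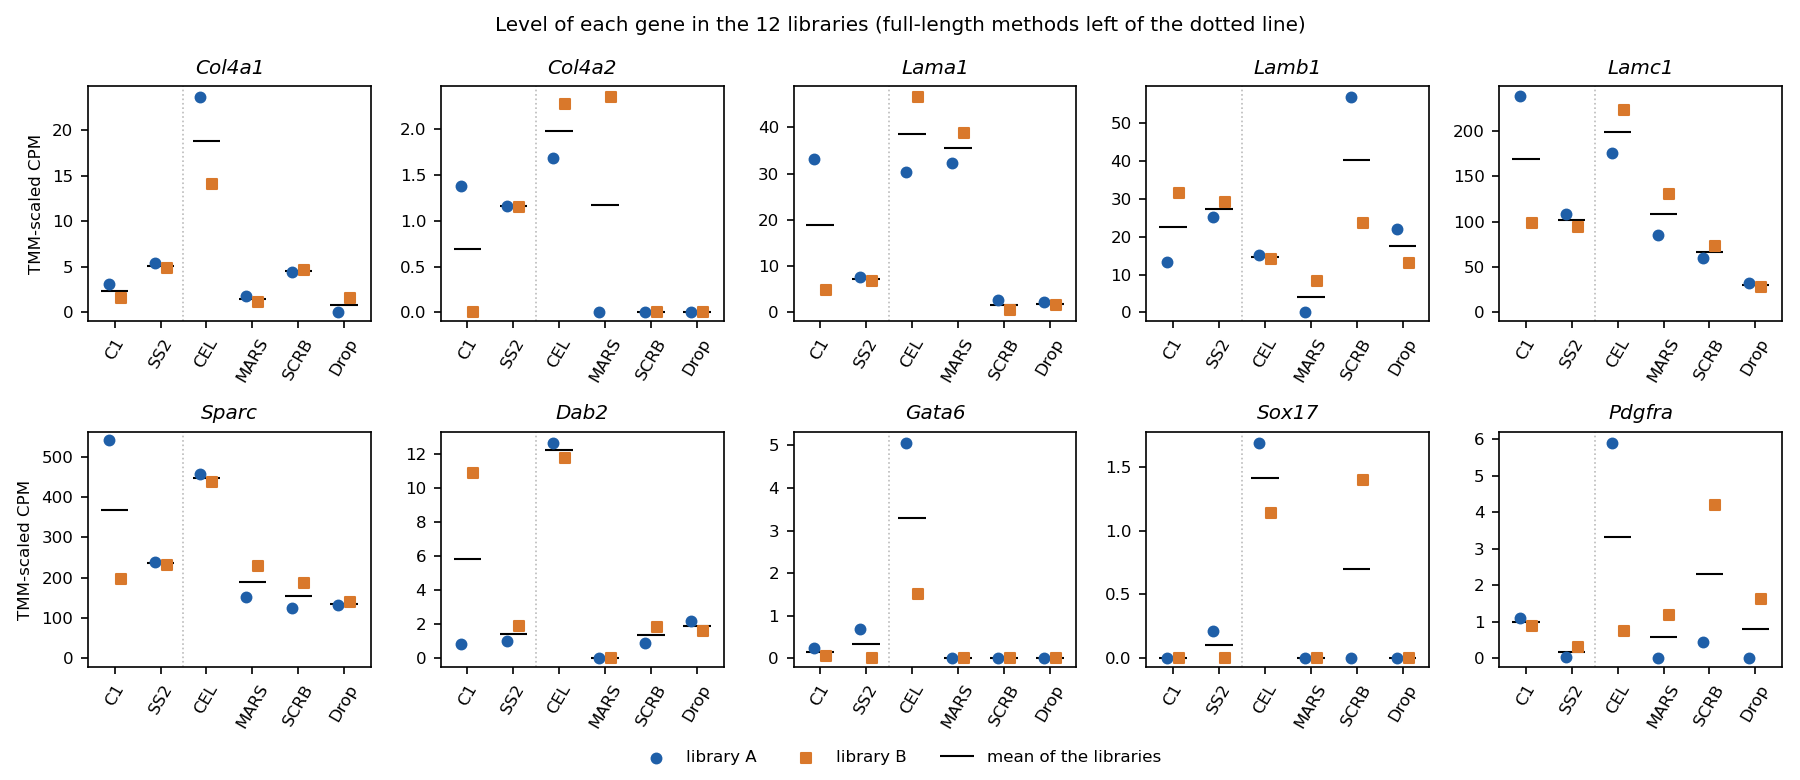
Level of each of the 10 genes (TMM-scaled CPM, linear axes that differ between panels) in libraries A and B of each method, with the mean of the libraries as a bar; C1 stands for Smart-seq / C1 and SS2 for Smart-seq2. Col4a1, Dab2 and Gata6 are highest in the CEL-seq2 libraries, and Sparc reaches 541 in Smart-seq / C1 A against 197 in B.

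The alpha and beta chains of laminin-111 changed places between methods. Lama1 (chromosome 17, 67697259 to 67822647), the alpha chain, read 33.1 and 4.76 CPM by Smart-seq / C1, 7.67 and 6.78 by Smart-seq2, 30.4 and 46.6 by CEL-seq2, 32.2 and 38.9 by MARS-seq, 2.67 and 0.465 by SCRB-seq, and 2.20 and 1.62 by Drop-seq. Lamb1 (chromosome 12, 31265234 to 31329644), the beta chain, read 13.3 and 31.6 by Smart-seq / C1, 25.2 and 29.3 by Smart-seq2, 15.2 and 14.0 by CEL-seq2, 0 and 8.24 by MARS-seq, 57.0 and 23.7 by SCRB-seq, and 22.04 and 12.95 by Drop-seq. Among the tag methods, whose UMIs count molecules whatever the transcript length, Lama1 stood above Lamb1 in both libraries of CEL-seq2 and MARS-seq and below it in both libraries of SCRB-seq and Drop-seq. Per kb of the longest transcript, Smart-seq2 gave Lamb1 4.36 and 5.06 CPM against 0.805 and 0.712 for Lama1. In Smart-seq / C1 the order depended on the library, with 3.47 CPM per kb for Lama1 against 2.31 for Lamb1 in A, and 0.5001 against 5.46 in B. The difference between the chains was not itself tested.

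The collagen IV chains were counted far less. Col4a1 read 3.09 and 1.59 CPM by Smart-seq / C1, 5.38 and 4.82 by Smart-seq2, 23.6 and 14.0 by CEL-seq2, 1.79 and 1.18 by MARS-seq, 4.45 and 4.65 by SCRB-seq, and 0 and 1.62 by Drop-seq. Both CEL-seq2 libraries lay above the other 10. Col4a2 read 1.38 and 0 by Smart-seq / C1, 1.17 and 1.15 by Smart-seq2, 1.69 and 2.27 by CEL-seq2 and 0 and 2.35 by MARS-seq, and was 0 in all SCRB-seq and Drop-seq libraries. In Smart-seq2, the deepest method, Col4a1 stood at 0.814 and 0.729 CPM per kb against 0.181 and 0.178 for Col4a2. In CEL-seq2, Col4a1 was counted 28 and 37 times against 2 and 6 for Col4a2. Col4a1 was thus the more abundant of the head-to-head pair in both libraries of both methods.

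On the per-kb scale of Smart-seq2 the genes fell in the order Sparc (mean of 103 CPM per kb), Lamc1 (13.3), Lamb1 (4.71), Col4a1 (0.771), Lama1 (0.759), Dab2 (0.309), Col4a2 (0.180), Gata6 (0.0913), Sox17 (0.0331) and Pdgfra (0.0243). Col4a1 and Lama1 overlapped between libraries and cannot be ordered, and Gata6, Sox17 and Pdgfra overlapped as well. Gata6 also overlapped Col4a2, standing above it in library A (0.183 against 0.181) and below it in B (0 against 0.178). Sparc, Lamc1 and Lamb1 kept the same order in both libraries.

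The 4 lineage genes were rare. Dab2 (chromosome 15, 6299788 to 6440712) read 0.854 and 10.9 CPM by Smart-seq / C1, 1.001 and 1.88 by Smart-seq2, 12.7 and 11.8 by CEL-seq2, 0 and 0 by MARS-seq, 0.890 and 1.86 by SCRB-seq, and 2.20 and 1.62 by Drop-seq. Both CEL-seq2 libraries and Smart-seq / C1 B lay above 10 CPM for Dab2, and the other 9 libraries lay at or below 2.20. Gata6, the GATA factor that starts the primitive endoderm programme, read 0.237 and 0.0635 by Smart-seq / C1, 0.691 and 0 by Smart-seq2 and 5.06 and 1.52 by CEL-seq2, with no count by MARS-seq, SCRB-seq or Drop-seq. The CEL-seq2 values of Gata6 rest on 6 and 4 UMIs. Sox17 (chromosome 1, 4490931 to 4497354), an SRY-box factor that follows Gata6 in the lineage, was counted in 4 libraries, Smart-seq2 A (0.214 CPM), CEL-seq2 A and B (1.69 and 1.14) and SCRB-seq B (1.40). Pdgfra (chromosome 5, 75152292 to 75198215), the PDGF receptor of primitive endoderm, read 1.09 and 0.889 by Smart-seq / C1, 0.0238 and 0.308 by Smart-seq2, 5.91 and 0.758 by CEL-seq2, 0 and 1.18 by MARS-seq, 0.445 and 4.19 by SCRB-seq, and 0 and 1.62 by Drop-seq. The highest value of Pdgfra stood in CEL-seq2 A, on 7 UMIs, and CEL-seq2 B lay within the range of the other methods.

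Summed levels of marker lists for other lineages rested on few genes. The summed level of 6 trophectoderm markers was 45.6 and 45.5 CPM in CEL-seq2 A and B, against 11.8 to 42.1 in the other libraries. Krt8 alone gave 24.5 and 40.6 of these sums, and 32.3% of its sequence is shared with other transcripts, while its partner Krt18 was at its lowest in CEL-seq2 (0.844 and 0.758). The sum of 11 fibroblast markers was 51.5 and 20.1, against 1.78 to 19.8, with 32.9 from Thy1 in CEL-seq2 A. Mesendoderm markers summed to 40.5 and 97.1 CPM in CEL-seq2, against 6.05 to 48.2 in the other libraries, so that Smart-seq / C1 B lay above CEL-seq2 A. Eomes alone gave 35.4 and 79.2 of the CEL-seq2 sums. The 21 other markers of extraembryonic endoderm summed to 48.9 and 83.0 CPM in CEL-seq2, within a range of 17.7 to 87.4 over all libraries. The highest sum, in Drop-seq B, held 68.0 from Pth1r alone. Gata4 was highest in CEL-seq2 (9.28 and 2.27 on 11 and 6 UMIs, against at most 2.20 elsewhere, on 2 UMIs). Lrp2, of the same list, read 3.37 and 9.10 in CEL-seq2, against 1.18 to 53.5 elsewhere. The part of these lists in the CEL-seq2 levels of Dab2, Gata6 and Col4a1 was not tested.

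Across the 6 methods, edgeR's quasi-likelihood test on the library sums could be applied to 6 of the 10 genes, since Col4a2, Gata6, Sox17 and Pdgfra did not pass the filter on low counts. Of all genes tested, 65.4% differed among the methods at a Benjamini-Hochberg adjusted p below 0.05. Among the members 5 of 6 did: Lamc1 (adjusted p = 0.000446), Lama1 (0.00077), Sparc (0.00427), Col4a1 (0.0116) and Dab2 (0.0335), while Lamb1 had an adjusted p of 0.0506. A share like this is not a result about these genes, since most genes passed. Without CEL-seq2 A the adjusted p was 0.0982 for Col4a1 and 0.0966 for Dab2, and Dab2 kept its call only without Smart-seq / C1 A, Smart-seq / C1 B or SCRB-seq B, with a highest adjusted p of 0.0983 over the other libraries left out.

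Lamc1 was higher in full-length than in tag libraries, 1 of 6 tested members, when 48.8% of all genes differed between these classes. The log2 fold change of Lamc1 was 0.69 (SE 0.238, edgeR adjusted p = 0.0225), when 25.6% of all genes were called higher in the full-length methods and 23.2% lower, and the median over all genes was 0.21. Of all calls 52.4% were higher, a share that was 70.0% with limma on cell means. The 4 full-length values of Lamc1, from 94.3 to 239 CPM, overlapped the 8 tag values (lowest 27.5, median 79.7, highest 223). The call ended without Smart-seq / C1 A (0.50, adjusted p = 0.0556) or MARS-seq A (0.62, adjusted p = 0.0532) and with DESeq2 (0.55, adjusted p = 0.0777). For Sparc the log2 fold change was 0.52 (SE 0.236, edgeR adjusted p = 0.0787), and it passed without Smart-seq / C1 B (0.79, adjusted p = 0.0016), Smart-seq2 A (0.72), Smart-seq2 B (0.75) or Drop-seq B (0.74). For Lamb1 it was 0.73 (SE 0.421, edgeR adjusted p = 0.162), and it passed without Smart-seq / C1 A (1.17, adjusted p = 0.0218) or MARS-seq B (2.92, adjusted p = 0.0188). The remaining values were 0.53 (SE 0.508) for Lama1, 0.19 (SE 0.646) for Col4a1 and 1.88 (SE 1.44) for Dab2. Each had an edgeR adjusted p of at least 0.302. Mean CPM lay the other way, at 13.1 in full-length against 19.4 in tag libraries for Lama1. It was 3.72 against 6.42 for Col4a1 and 3.65 against 3.87 for Dab2. For Dab2 DESeq2 gave a log2 fold change of 0.60.

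Replicate libraries of 1 method also differed from each other, most often in Smart-seq / C1. With 1 CPM added before taking logs, 6 of the 10 genes were at least 2-fold apart between Smart-seq / C1 A and B, where 27.3% of all tested genes were. Col4a2, Lama1, Lamc1 and Sparc were higher in A, and Lamb1 and Dab2 were higher in B. Lama1 differed 5.91-fold and Dab2 6.40-fold in opposite directions. In Smart-seq2 none of the 10 differed that much (1.13% of all genes). CEL-seq2 had 2 of the 10 that far apart (26.4% of all genes), MARS-seq had 3 (32.1%), SCRB-seq had 4 (25.2%) and Drop-seq had 2 (28.1%), and apart from Lamb1 in SCRB-seq all of these had fewer than 10 counts in each library. These folds carry no test, with 1 library on each side.

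Other genes of the matrix were looked at for comparison. Of 22 other basement membrane genes, 12 were tested and 4 were called higher and 0 lower in full-length libraries by edgeR. The median log2 fold change was 0.52 against 0.21 over all genes. Of all genes 25.6% were called higher and 23.2% lower. Neither these fold changes nor those above were scaled by transcript length. Among the 4 called higher was Nid2, a laminin linker (1.05, SE 0.198, edgeR adjusted p = 0.000281). Col18a1, the collagen behind endostatin, was another (1.05, SE 0.223, edgeR adjusted p = 0.000815). For both, the high values were those of Smart-seq2, 358 and 289 CPM for Nid2 and 266 and 241 for Col18a1. Smart-seq / C1 read 177 and 162 for Nid2, within the tag range of 43.7 to 178. For Col18a1 it read 101 and 98.2, within the tag range of 21.9 to 190. Fn1, which codes for fibronectin and is the most abundant of the set, had a log2 fold change of 0.23 (edgeR adjusted p = 0.354). Of the 14 genes that fold and export collagen, 3 were higher and 2 lower, with a median of 0.11. P4hb, the beta subunit of prolyl hydroxylase, was higher (0.90, edgeR adjusted p = 0.00113). Ppib, a prolyl isomerase, was lower (-1.43, edgeR adjusted p = 1.27e-05), though 13.6% of its sequence is shared with other transcripts. Plod2, a lysyl hydroxylase, differed among methods in the joint test (edgeR adjusted p = 0.000835).

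Of the 10 matrix receptors, 3 were higher and 1 lower, with a median of 0.46, when 25.6% of all genes were higher and 23.2% lower. The syndecan Sdc4 was higher (2.39, edgeR adjusted p = 6.72e-07) and the laminin receptor Bcam was lower (-0.87, edgeR adjusted p = 0.0269). For Bcam the low full-length values were those of Smart-seq / C1 (9.68 and 2.73 CPM). Smart-seq2 read 112 and 91.0 for Bcam, within the tag range of 19.8 to 151. Only 5 of the 21 other extraembryonic endoderm markers were tested, and 1 passed, the endocytic receptor Lrp2 (1.01, SE 0.41, edgeR adjusted p = 0.0499). Pth1r, the parathyroid hormone receptor of parietal endoderm, differed among methods (edgeR adjusted p = 9.61e-05), with 23.1 and 68.0 CPM in Drop-seq against at most 1.86 in the other libraries. Drop-seq, where Pth1r was highest, held no count of Gata6 or Sox17. Among markers of other cells, Mixl1 (mesendoderm) was higher in full-length libraries (3.34, edgeR adjusted p = 0.0255). Prrx1 (-6.40, edgeR adjusted p = 0.00127) and Thy1 (-2.55, edgeR adjusted p = 0.0239), both of fibroblasts, were lower. For each of these genes the full-length and tag libraries overlapped. Prrx1 had 37 counts in all, with 1 read in Smart-seq / C1 B and none in the other full-length libraries. Mixl1 had no count in Drop-seq, so the sizes of both fold changes are uncertain. Of 4 trophectoderm markers tested 0 passed by edgeR, with 1 (Krt18) at an unadjusted p below 0.05. All 7 naive markers differed among methods, with Pou5f1 (-1.17) and Sox2 (-2.001) lower in full-length libraries and Zfp42 (0.94) higher. For Pou5f1 the low full-length values were again those of Smart-seq / C1 (36.3 and 42.4 CPM). Smart-seq2 read 422 and 351 for Pou5f1, within the tag range of 88.6 to 639. Krt18, Zfp42 and Nanog share 11.4%, 14.1% and 10.7% of their sequence with other transcripts, so their counts are uncertain.

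Whether a gene was seen in a cell depended on depth, so each cell was also thinned at random to 10000 counts. A thinned count is still a read in the full-length methods and a UMI in the tag methods. In thinned cells Sparc was counted in 470 of 583 cells, Lamc1 in 353, Lamb1 in 104, Lama1 in 57, Col4a1 in 26, Dab2 in 14, Col4a2 and Pdgfra in 6 each, Gata6 in 2 and Sox17 in 1. With all counts the numbers were 548, 514, 286, 190, 115, 60, 27, 25, 16 and 10, in the order Sparc, Lamc1, Lamb1, Lama1, Col4a1, Dab2, Col4a2, Pdgfra, Gata6 and Sox17. Per library, the thinned share of cells with Sparc ran from 48.3% in MARS-seq A (14 of 29 cells, exact Clopper-Pearson 95% interval 29.4% to 67.5%) to 97.1% in Smart-seq / C1 A (67 of 69, 89.9% to 99.6%). The thinned share with Lamc1 ran from 29.4% in Drop-seq B (10 of 34, 15.1% to 47.5%) to 86.5% in CEL-seq2 B (32 of 37, 71.2% to 95.5%). Lama1 reached 37.8% in CEL-seq2 B (14 of 37, 22.5% to 55.2%) and 0 of 45 cells in SCRB-seq B, which allows a share of up to 6.67% (here and below, the limit for a count of 0 is 3 cells of the total, and is not the Clopper-Pearson bound). Intervals and limits cover counting error only. The labels name no other cell type in which these genes should be absent, so the share due to free RNA was not measured.

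**Figure D2:**
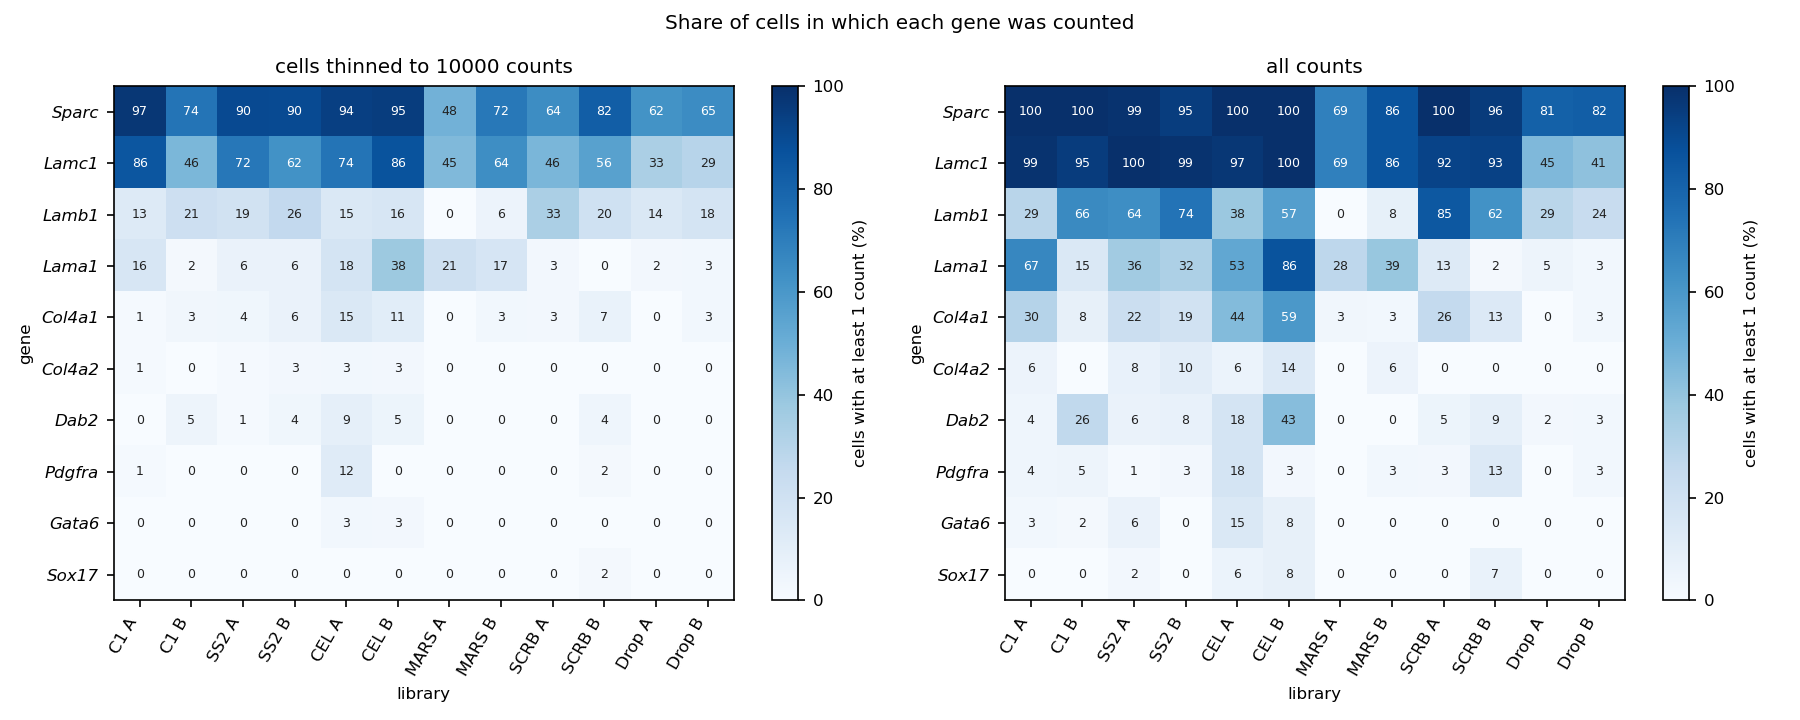
Percentage of cells of each library with at least 1 count of each gene (darker is higher), after thinning to 10000 counts per cell (left) and with all counts (right). Sparc and Lamc1 are seen in most cells of most libraries, and Gata6 and Sox17 are near 0 after thinning.

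With all counts, the lineage genes were counted in uneven shares of cells. Dab2 was counted in 16 of 37 cells of CEL-seq2 B (43.2%, interval 27.1% to 60.5%), 16 of 61 of Smart-seq / C1 B (26.2%, 15.8% to 39.1%) and 6 of 34 of CEL-seq2 A (17.6%, 6.76% to 34.5%). In Smart-seq / C1 A it was counted in 3 of 69 cells (4.35%, 0.906% to 12.2%). After thinning, Dab2 was counted in 0 of 69 cells of Smart-seq / C1 A and 3 of 61 of B (4.92%, 1.03% to 13.7%). Thinning left 0 and 5 reads of Dab2 in these libraries, too few to show a gap. Before thinning their depth was similar, with a median of 269281 counts per cell in A and 311984 in B. The gap between these libraries was not tested. In the MARS-seq libraries it was counted in 0 of 29 and 0 of 36 cells, which allows up to 10.3% and 8.33% by the limit of 3 cells. Gata6 was counted in 5 of 34 cells of CEL-seq2 A, 3 of 37 of CEL-seq2 B, 5 of 80 of Smart-seq2 A and 0 of 77 of Smart-seq2 B, the last allowing up to 3.90% by the same limit. Pdgfra was counted in 6 cells each of CEL-seq2 A and SCRB-seq B, and in at most 3 cells of any other library. Sox17 was counted in 3 cells each of CEL-seq2 B and SCRB-seq B and in 2 each of CEL-seq2 A and Smart-seq2 A.

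A few cells carried much of the signal in the full-length libraries. In Smart-seq2 B, 1 cell held 45 of the 67 reads of Dab2 (67.2%), and in Smart-seq / C1 B the top cell held 62 of 171 (36.3%). In Smart-seq2 A, 1 cell held 8 of the 9 reads of Sox17, and another held 12 of the 29 reads of Gata6. In Smart-seq / C1 A, 1 cell held 17 of the 23 reads of Pdgfra. Reads of the full-length methods carry no UMI, so 1 molecule can give many reads. In CEL-seq2 B the top cell held 9 of the 31 UMIs of Dab2.

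Cells with several lineage genes at once were few. In thinned cells 561 of 583 held none of Dab2, Gata6, Sox17 and Pdgfra, 21 held 1, and 1 held 2. That cell, of CEL-seq2 A, had 2 UMIs of Dab2 and 1 of Pdgfra after thinning, beside 4 of Nanog. The product of each gene's share of cells within each library gave 0.701 such cells, and 10 further random thinnings gave between 0 and 3 cells (median 1) against products between 0.193 and 0.982. With all counts, 486 cells held none, 85 held 1, 10 held 2 and 2 held 3, so 12 cells (2.06%, exact interval 1.07% to 3.57%) held 2 or more, against 9.70 from the product of the shares.

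CEL-seq2 supplied 10 of those 12 cells, 5 in each library, against 6.28 from the product of the shares. The other 10 libraries together held 2 such cells, 1 in Smart-seq / C1 B and 1 in Smart-seq2 A, against 3.42. Both cells with 3 lineage genes were of CEL-seq2. The cell in library A had 2 UMIs of Dab2, 1 of Gata6 and 1 of Pdgfra, with 17 of Nanog, 7 of Zfp42 and 23 of Sparc. The cell in library B had 9 of Dab2, 1 of Sox17 and 2 of Pdgfra, with 70 of Nanog, 24 of Zfp42 and 60 of Sparc, against library medians of 26, 18 and 32 for the last 3 genes. All 12 cells carried counts of Nanog and Zfp42 and none carried a count of Gata4 or Foxa2, endoderm factors that act with Gata6. Sox7, a relative of Sox17, had 1 UMI in 1 of them, and between 0 and 5 of the 21 other endoderm markers were counted in each. The median per cell was 1 and 3 in CEL-seq2 A and B, and 2 in Smart-seq / C1 B and in Smart-seq2 A. Over all 583 cells Gata4 and Foxa2 had 28 and 6 counts, and Nanog and Zfp42 were in 578 and 580 cells. These markers therefore say little about the 12 cells. Their total counts lay between 0.773 and 1.52 times the median of their library, above it in 10 of 12.

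**Figure D3:**
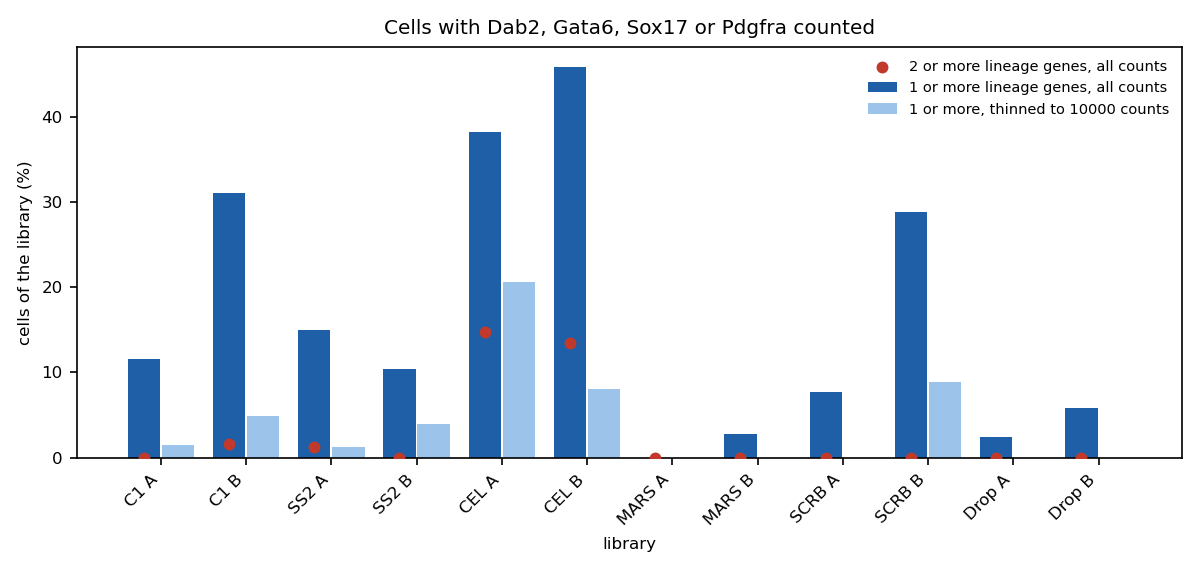
Percentage of cells of each library with at least 1 of Dab2, Gata6, Sox17 and Pdgfra, with all counts (dark bars) and thinned to 10000 counts (light bars), and with 2 or more of them with all counts (red points). The CEL-seq2 libraries reach 38.2% and 45.9% with all counts, and MARS-seq A stands at 0.

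Summed over pairs, genes were counted together about as often as their separate shares gave, but the sums rest mostly on genes seen in most cells. With all counts Sparc was in 548 and Lamc1 in 514 of 583 cells. A pair with either can rise little above its product, so a ratio near 1 says little there. Over all 45 pairs and all counts, 2332 joint occurrences stood beside 2293 from the product of the shares within libraries, a ratio of 1.02, and in thinned cells 664 stood beside 648. For the 15 pairs of matrix genes the numbers were 1942 and 1919. Lamc1 and Sparc were both counted in 299 thinned cells, against 297 from the product. Col4a1 and Col4a2, the head-to-head pair shown above, met in 8 cells with all counts, against 8.04 from the product, although 115 cells held Col4a1 and 27 held Col4a2. Lama1 and Lamb1 met in 90 cells against 88.1.

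Pairs of lineage genes gave 16 joint occurrences with all counts against 10.8, a ratio of 1.48 on few cells. In thinned cells they gave 1 against 0.724, with 1 of the 6 pairs together in a cell. With all counts, here and in the rest of this paragraph, Dab2 met Gata6 in 4 cells (2.84 from the product), Sox17 in 4 (2.04) and Pdgfra in 4 (3.24). Gata6 met Pdgfra in 3 cells (1.16), Sox17 met Pdgfra in 1 (0.859), and Gata6 never met Sox17 (0.662). The 24 pairs of a matrix gene with a lineage gene gave 374 against 363. All 60 cells with Dab2 also held Lamc1 and Sparc, the most possible, against 57.4 and 59.1 from the products. Pairs share cells, so these counts are not independent of each other, and no test was run on them.

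**Figure D4:**
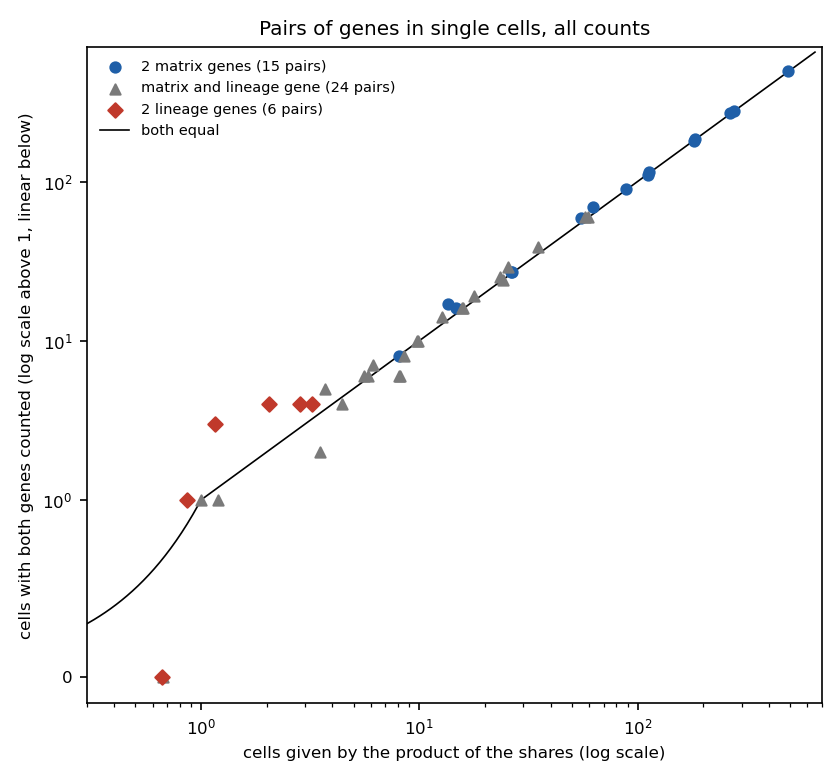
Cells in which both genes of a pair were counted (all counts) against the number given by the product of their shares within each library, for the 45 pairs, on log axes (linear below 1 on the vertical axis). Points follow the line of equal values, and 5 of the 6 lineage pairs lie above it on at most 4 cells each.

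Variation among cells was measured as the squared coefficient of variation in thinned cells above the trend for genes of the same mean, which only Sparc and Lamc1 were abundant enough to enter. Sparc lay above the trend, by 0.41 on the log2 scale (SE 0.102, limma adjusted p = 0.0106), in 11 of 12 libraries, when 2.67% of the 2659 genes tested were called above it. Across libraries the Sparc residual ran from -0.04 in SCRB-seq A to 1.23 in CEL-seq2 A. Lamc1 lay below the trend, by -0.35 (SE 0.0992, limma adjusted p = 0.0295), when 2.93% of genes were called below it. Both values depended on the random thinning.

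In 10 further draws, added after these values were seen, Sparc stayed positive, from 0.19 to 0.48, and passed in 3 draws. Between 58 and 78 of all genes were called above the trend in each draw. With mean and variance averaged over the 10 draws the Sparc residual was 0.30 (SE 0.0577, limma adjusted p = 0.00382) and above the trend in 11 of 12 libraries. Averaging raised the number of genes called above the trend to 164 of 2836. Lamc1 passed in 0 of the 10 draws by limma at the adjusted threshold, with residuals from -0.20 to 0.06 and adjusted p of at least 0.271, and the averaged residual was -0.05 (adjusted p = 0.605). The excess variation of Sparc was therefore seen in all 10 draws as a direction, and the call for Lamc1 was made in the first draw alone, where it was also lost without any of 8 single libraries. Without CEL-seq2 A or Smart-seq2 A, the first-draw call for Sparc ended (limma adjusted p = 0.0699 and 0.0513). Of the other matrix genes tested in that draw, Sdc4 (0.99), Itgb1 (0.40), the beta-1 integrin, and Col18a1 (0.35) were also called above the trend, when 2.67% of all genes were. The rest, among them Nid2, Fn1, P4hb, Plod2 and Ppib, were not called (limma adjusted p of at least 0.154). The further draws were not looked at for these genes.

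**Figure D5:**
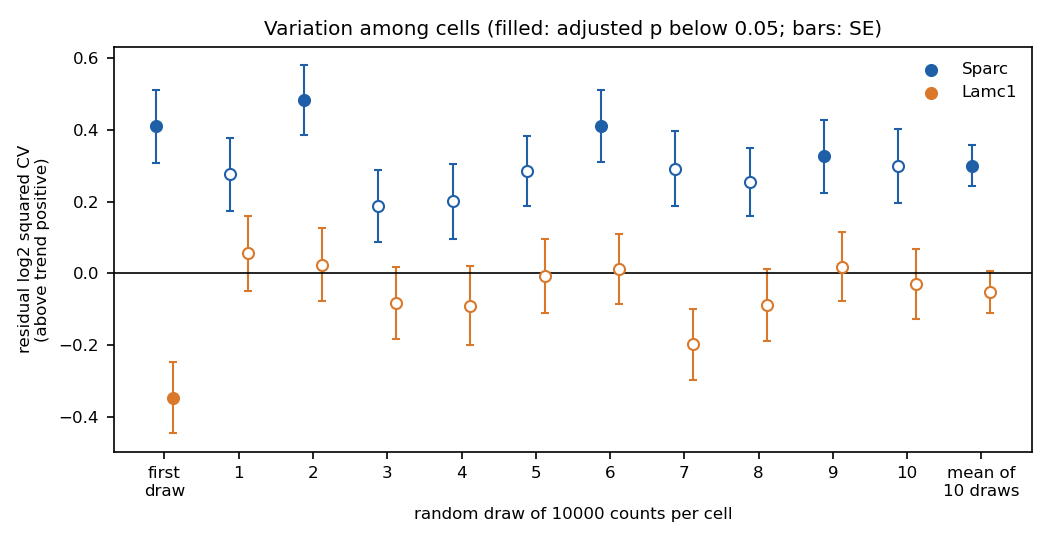
Residual log2 squared coefficient of variation of Sparc and Lamc1 (mean over the methods, bars show the SE), in the first random draw, in 10 further draws and with the 10 draws averaged; filled points have an adjusted p below 0.05. Sparc is above 0 in every draw shown and Lamc1 is filled only in the first draw.

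Across the cells of a library, Lamc1 and Sparc did not move together. The mean of the within-library Pearson correlations of log2(thinned count + 1) was -0.0642 over the 12 libraries (lowest -0.363, highest 0.15), above 0 in 3 of them. Over all 3533811 pairs of genes above the minimum mean the median was 0.00332, and the middle 95% of pairs lay between -0.0863 and 0.0941. The cells of a library share its depth and handling, and no p is given. With another thinning the mean was 0.0367 and with all counts 0.0298, so its sign was not fixed. The genes most like Sparc were Taf11 (0.17, above 0 in 12 of 12 libraries), Arf4 (0.145), Ago2 (0.142), P4hb (0.14) and Prrc2b (0.14). Those most like Lamc1 were Bub3 (0.156), Plod2 (0.153, above 0 in 11 of 12), Timeless (0.151), Lsm4 (0.149) and Rhno1 (0.147). All of these correlations were weak. They were picked as the largest of 2658 compared for each gene, in the first thinning alone. The partners were not looked at in another thinning. P4hb and Plod2 code for enzymes that modify collagen, but the partners were not tested for an excess of such genes.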

How the data were processed

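Gene-by-cell counts were analysed as deposited. Per the deposited notes, the authors made UMI counts with the Drop-seq pipeline and STAR 2.4.0; per the submitters' processing notes, bcl2fastq, STAR 2.4.0 and mm10 were used throughout. What counted the full-length reads, and with which annotation, is not given in the sources used here. All 583 columns were mapped to cells through their titles. The 92 spike-in rows were left out, no cell was removed and no doublet caller was run. Symbols and positions came from GENCODE M21. Counts were summed over the cells of each library (12 libraries), filtered with filterByExpr, scaled by TMM and fitted in edgeR 4.0.16 with 1 mean per method (14293 genes, common biological coefficient of variation 0.418). DESeq2 1.42.0 and limma 3.58.1 served as alternatives, and limma also tested variation. Cells were thinned to 10000 counts, and variation used genes with a mean of at least 0.2 in every library and a loess span of 0.5. Scripts were tested on simulated data. Genes sharing at least 10% of their 31-base words with other transcripts are named as uncertain in the text. The 10 genes, the lists and the tests were chosen with earlier results of these data known. Besides the 10 genes, the text names, per list, the 2 genes with the smallest joint p and the most expressed one, and the 5 genes most correlated with Sparc and with Lamc1. Itgb1, Gata4, Foxa2, Sox7 and Nanog fall outside this rule and were named after their values were seen. Python 3.11.15 with numpy 2.4.6 and scipy 1.17.1 was used for the rest.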

Additional observations from a re-analysis of the deposited data

Results flagged for a closer look

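Of 20 groups of libraries checked (each gene in the 4 full-length and in the 8 tag libraries), 8 held a library that stood far from the rest of its group by Dixon's test. Chance flags about 1 in 20 when a group is 1 normal population. These groups pool methods that differ, and some hold many zeros, so the 8 cannot be set against that rate. Smart-seq / C1 A stood apart for Sparc (541 CPM, others 197 to 240), Lamc1 (239, others 94.3 to 109) and Lama1 (33.1, others 4.76 to 7.67). Smart-seq / C1 B stood apart for Dab2 (10.9, others 0.854 to 1.88) and for Col4a2 (0, others 1.15 to 1.38). Smart-seq2 A was the sole full-length library with Sox17 (0.214, on 9 reads), a case where any count at all is flagged. Among tag libraries, SCRB-seq A stood apart for Lamb1 (57.0, highest other 23.7) and CEL-seq2 A for Gata6 (5.06, highest other 1.52).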

How the results depend on the processing

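Of the 10 genes, the number differing among methods was 5, and it was 6 with DESeq2, limma, no TMM or no filter and 3 to 6 without single libraries. The number differing between full-length and tag libraries was 1 (Lamc1), 2 with library totals alone, 2 with limma, 3 without a filter and 0 with DESeq2 (1 at an unadjusted p below 0.05), and 0 to 2 without single libraries. The direction turned, with no call, for Col4a1 without Drop-seq A (-0.12, and from -0.12 to 1.85 over the single libraries left out) and with limma (-0.12), for Lama1 without Smart-seq / C1 A (-0.27, range -0.27 to 0.97) and for Dab2 with limma (-0.041). The cause was not tested. With the filter 6 of the 10 genes were tested, and without it all 10. Of all genes 9354 differed among methods, with 10072 by DESeq2, 12205 by limma, 9640 without TMM and 11136 without a filter. The 6 calls among methods thus came with more calls over all genes, and are not a result about these genes. Between full-length and tag libraries 6975 of all genes differed, with 7269 by DESeq2, 8941 by limma, 7524 without TMM and 8129 without a filter. Of all calls between full-length and tag libraries 52.4% were higher, 70.0% with limma. The median over all genes was 0.21, 0.39 without TMM and 0.04 with DESeq2. Library letters did not pair the samples (highest correlation of deviations between methods 0.0781 over 15 pairs), and with a replicate block the numbers were 5, 1 and, for variation above the trend, 1 gene of these and 77 of all. The 71 genes above the trend became 22 at 5000 counts per cell, 164 with 10 draws averaged, and 43 to 96 without single libraries. Sparc was the 1 member called, with 0 members called by limma at 5000 counts or with another thinning (1 in each at an unadjusted p below 0.05) and 0 to 1 without single libraries. Thinned cells with 2 or more lineage genes numbered 1, then 12 with all counts, 0 when 2 counts were required, 0 with another thinning, 0 to 1 without single libraries and 0 without CEL-seq2, where all counts gave 2. Joining close Drop-seq barcodes left 1 of 560 cells. Dropping both CEL-seq2 libraries and drawing 10 further thinnings were chosen after seeing the data. Depth limits Gata6, Sox17, Pdgfra and Col4a2, whose thinned means were at most 0.118 counts per cell in any library.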
